A study of Mus musculus with 6 samples.

Results

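The genes described here encode the regulatory B subunits of protein phosphatase 2A (PP2A), a serine/threonine phosphatase, in mouse B cells with and without the A alpha scaffold subunit gene Ppp2r1a. Members were the rows whose gene symbol equals one on a fixed list of 10 genes of the B, B' and B'' families, without scaffold or catalytic genes, and all 10 had a row among the 22788 genes used. RNA came from 6 libraries, 3 from wild-type (WT) C57BL/6 mice and 3 from mice with both Ppp2r1a alleles floxed and a Cre recombinase, on the same strain background (PP2Aa-deficient), all 8 weeks old. The series describes the loss as one in B cells, and the WT mice carry neither the Cre nor the floxed alleles according to their label, so an effect of Cre cannot be told apart from one of the deletion. Total RNA of 1000000 cells was made into Smart-seq2 libraries, a protocol for small amounts of RNA. The labels call the tissue spleen, whereas their protocols describe peritoneal lavage, and they do not say that each library came from its own mouse. Xist, a transcript of the inactive X chromosome of females, was abundant in replicate 1 of either group, with 65.2 FPKM for WT and 84.5 FPKM for the PP2Aa-deficient one, and the Y-linked Ddx3y was at 0 there. In the other 4 libraries Xist was at 0.116 FPKM or less and Ddx3y at 14.2 to 19.8, so each group held RNA of both sexes and of more than 1 mouse. The p-values reflect the spread among 6 libraries, which may be technical in part.

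PP2A is assembled from a scaffold (A) subunit, a catalytic (C) subunit and a variable regulatory (B) subunit. The regulatory subunit decides where the enzyme goes in the cell and which phosphoproteins it acts on. Subunits of the B family, also called B55, act on proteins phosphorylated by cyclin-dependent kinases at the end of mitosis. Those of the B' family, also called B56, bind short linear motifs in their partner proteins, and those of the B'' family carry calcium-binding EF hands.

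Relative depth ranged from 0.977 to 1.76 times that of WT replicate 1, or from about 2040000 to 3660000 fragments, with WT replicate 2 the deepest. Levels are in FPKM, fragments scaled by transcript length and library size. The B cell label held: the summed level of 5 B cell markers was 2844 to 2991 FPKM in WT, against 2776 to 3187 in PP2Aa-deficient libraries. Within that sum Ms4a1 lay apart, at 276 to 371 FPKM in WT, against 376 to 390 in PP2Aa-deficient libraries (limma adjusted p = 0.653). The others overlapped. Markers of some B cell subsets and of other cells moved with the groups. The sum of 4 plasma cell genes with a row was 852 to 1243 FPKM in WT, against 223 to 504 in PP2Aa-deficient libraries, with all 4 lower. That of 3 marginal zone genes was 62.5 to 79.3 and 88.1 to 125 FPKM, with 0 of 3 lower. Of these Cr2 overlapped, at 33.8 to 51.4 FPKM in WT, against 49.6 to 70.0 in PP2Aa-deficient libraries. Of eosinophil and mast cell markers the sum was 21.7 to 40.7 and 6.09 to 15.5 FPKM, nearly all of it Prg2, with Epx at 0 in every library. B-1 cell markers summed to 8.17 to 15.3 and 5.51 to 8.13 FPKM, with Cd5 at or under 0.246. Sums overlapped between the groups for T cell (3.09 to 6.67 and 4.71 to 6.75 FPKM), macrophage (31.8 to 37.8 and 27.4 to 32.5) and neutrophil markers (0 to 4.96 and 0 to 5.75), with S100a8 and Marco at 0 in several libraries. One macrophage marker, Emr1, lay apart within its overlapping sum, at 2.93 to 8.59 FPKM in WT, against 0.242 to 1.91 in PP2Aa-deficient libraries (15.6% of WT, log2 change -1.78, limma adjusted p = 0.245). The macrophage markers Cd68, Lyz2, C1qb and C1qa were at 105%, 100%, 99.8% and 81.0% of WT, each with overlap. The part of these cells in the values of the regulatory subunits was not tested. In bulk RNA, fewer cells of a type and less RNA per cell cannot be told apart.

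Regulatory subunits of a family are close relatives, so reads of one gene could in principle be assigned to another, and the coding sequences of the closest pairs are shown for that reason. Between Ppp2r2a (chromosome 14) and Ppp2r2d (chromosome 7), which together make up the B family here, 77.6% of 1340 aligned coding bases were identical in GENCODE M21 transcripts of GRCm38, and the longest identical run was 17 bases. Their most alike stretch of 90 coding bases, with the 12 differing bases in capitals, spans coding bases 337 to 426 of Ppp2r2a and 355 to 444 of Ppp2r2d, counted from the start codon, 5′ to 3′.
Ppp2r2a: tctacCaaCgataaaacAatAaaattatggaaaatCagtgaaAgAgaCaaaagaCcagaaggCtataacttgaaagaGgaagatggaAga
Ppp2r2d: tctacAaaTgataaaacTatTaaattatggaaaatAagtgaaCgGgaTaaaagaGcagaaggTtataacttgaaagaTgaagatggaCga
Within the B' family the pair of highest identity was Ppp2r5c (chromosome 12) and Ppp2r5d (chromosome 17), with 73.8% of 1555 aligned bases identical and a longest identical run of 25 bases. Their most alike stretch of 90 coding bases held 11 differing bases, again in capitals, at coding bases 979 to 1068 of Ppp2r5c and 1186 to 1275 of Ppp2r5d.
Ppp2r5c: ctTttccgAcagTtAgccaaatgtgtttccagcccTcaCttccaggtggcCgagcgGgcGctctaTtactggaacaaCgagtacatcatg
Ppp2r5d: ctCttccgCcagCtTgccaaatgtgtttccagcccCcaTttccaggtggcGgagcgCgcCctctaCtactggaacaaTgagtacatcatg
Identical runs longer than 29 bases were absent from all 10 pairs of B' coding sequences. The longest was 29 bases, between Ppp2r5b and Ppp2r5d. Read length is not given in the sources used here.

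The floxed gene itself was lower in every PP2Aa-deficient library than in any WT library. Ppp2r1a measured 85.7, 85.4 and 83.7 FPKM in WT replicates 1 to 3, against 31.3, 56.2 and 28.2 FPKM in replicates 1 to 3 of the PP2Aa-deficient group, which is 36.9%, 66.2% and 33.2% of the WT mean. Any transcript from outside the floxed part would count in these values, and its share in them was not tested. PP2Aa-deficient replicate 2 kept the most Ppp2r1a RNA of its group, and results that rest on it are given with and without it. Ppp2r1a did not pass over all genes (limma adjusted p = 0.168), and without that library it did (log2 change -1.48, limma adjusted p = 0.00555).

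B cells expressed members of all 3 families, over a range of levels. In mean FPKM over the 6 libraries Ppp2r5c came first with 37.97, followed by Ppp2r2a (24.6), Ppp2r5a (13.1), Ppp2r5d (6.70), Ppp2r2d (5.62), Ppp2r3c (5.50), Ppp2r3d (3.29), Ppp2r5e (2.27), Ppp2r5b (1.90) and Ppp2r3a (0.31). Ppp2r5c lay above 87.0% of the 9425 tested genes in mean FPKM, Ppp2r2a above 80.5% and Ppp2r5a above 67.6%, while Ppp2r5b lay above 13.6%. In FPKM, the first places were stable across libraries. Ppp2r5c exceeded Ppp2r2a in 6 of 6 libraries, by 1.38 to 1.72 times, and Ppp2r2a exceeded Ppp2r5a in 6 of 6, by 1.52 to 2.31 times, with no overlap of their ranges. The order of Ppp2r5c and Ppp2r2a depends on the transcript lengths used for FPKM, which are not given. With GENCODE M21 lengths of 1847 and 4010 bases, they correspond to about 123 to 297 and 179 to 459 fragments per library. In each library Ppp2r2a then had more fragments than Ppp2r5c. Further down, neighbours overlapped: Ppp2r5a exceeded Ppp2r5d in 5 libraries, Ppp2r5d exceeded Ppp2r2d in 4, and Ppp2r2d exceeded Ppp2r3c in 3. Ppp2r3d exceeded Ppp2r5e in 5 libraries and Ppp2r5e exceeded Ppp2r5b in 4, so the order of these neighbours was not fixed. Ppp2r3c exceeded Ppp2r3d in 6 libraries although their ranges overlapped across libraries, and Ppp2r3a was lowest in all 6.

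**Figure D1:**
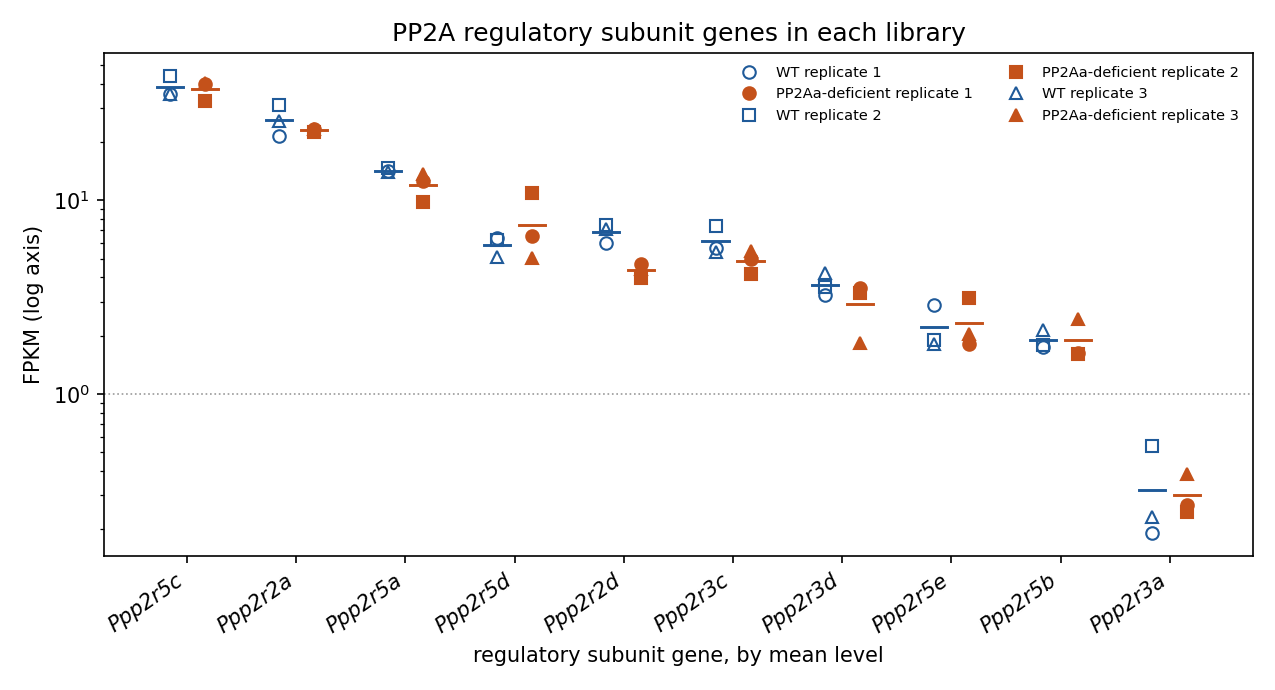
Level of each regulatory subunit gene in FPKM (log axis) in the 3 WT (open) and 3 PP2Aa-deficient (filled) libraries, with symbols for replicates and short lines for group means; the dotted line marks 1 FPKM. Ppp2r2d at 3.98 to 4.72 FPKM in PP2Aa-deficient libraries lies below its 3 WT values, whereas Ppp2r5c and Ppp2r2a overlap between the groups.

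Genes with at least 1 FPKM in at least 3 libraries were tested with limma on log2(FPKM + 1), over 9425 genes. Of the 10 members 9 were tested, each of them at 1 FPKM or more in all 6 libraries, and Ppp2r3a was not. Over all genes 0 of the 9 passed an adjusted p of 0.05, a threshold that 0.0318% of all tested genes passed (3 of 9425). At an unadjusted limma p under 0.05 there was 1 member, Ppp2r2d, lower in PP2Aa-deficient B cells, and 0 were higher, where 4.41% of tested genes were lower and 5.06% higher. Fitted changes were below 0 for 7 of the 9 and above 0 for 2, against 51.1% of all tested genes below 0, and their median log2 change was -0.15 against -0.007 over all tested genes.

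In the B family, the 2 members differed in how far the groups lay apart. Ppp2r2d, encoding B55 delta, a subunit that in frog eggs is held inactive by phosphorylated Arpp19 and Ensa during mitosis, measured 6.05, 7.43 and 7.11 FPKM in WT replicates 1 to 3, against 4.72, 3.98 and 4.44 FPKM in replicates 1 to 3 of the PP2Aa-deficient group. Every PP2Aa-deficient library lay below every WT library. The group means were 6.86 ± 0.724 and 4.38 ± 0.373 FPKM (SD, n = 3), or 63.8% of WT, and the log2 change was -0.55 (SE 0.16, 95% confidence interval -0.92 to -0.17, limma adjusted p = 0.366). Its unadjusted limma p was 0.00923. Changes of larger size were fitted for 8.05% of all tested genes and a smaller p for 2.49%. With the length of the transcript of longest coding sequence, these levels correspond to about 17 to 57 fragments per library, and at 17 fragments counting alone gives an error of about 24.3%. In GENCODE M21, Ppp2r2d overlaps Mapk1ip1 on the opposite strand, whose levels were 8.92 to 12.6 FPKM in WT, against 10.4 to 12.2 in PP2Aa-deficient libraries, and whether counting used strand is not given. The summed markers of plasma, marginal zone and B-1 cells lay apart between the groups as Ppp2r2d did, though each B-1 gene overlapped. So did the eosinophil marker Prg2 and, alone of its list, the macrophage marker Emr1. The part of these markers in the values of Ppp2r2d was not tested.

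Ppp2r2a, encoding B55 alpha, the broadly expressed member of the family that acts in mitotic exit, measured 21.4, 31.3 and 25.6 FPKM in WT, against 23.4, 22.6 and 23.5 in PP2Aa-deficient libraries. The PP2Aa-deficient values all lay inside the WT range. The means were 26.1 ± 4.95 and 23.2 ± 0.523 FPKM (SD, n = 3), with a log2 change of -0.15 (SE 0.16, 95% confidence interval -0.51 to 0.21, limma adjusted p = 0.829). The ratio of Ppp2r2a to Ppp2r2d within a library, which a single scaling factor per library does not move, was 3.54, 4.21 and 3.60 in WT, against 4.97, 5.67 and 5.29 in PP2Aa-deficient libraries. These ratios did not overlap between the groups, and neither did Ppp2r2d, which enters them. The ratio of Ppp2r5c to Ppp2r2a overlapped, at 1.38 to 1.665 in WT, against 1.45 to 1.72 in PP2Aa-deficient libraries. So did that of Ppp2r5d to Ppp2r5a, at 0.366 to 0.456 and 0.367 to 1.11. A difference between the changes of Ppp2r2a and Ppp2r2d was not tested.

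The B' family held the regulatory subunit RNA of highest FPKM and showed no member past the threshold. Ppp2r5c, encoding B56 gamma, a subunit known to act on p53, measured 35.6, 44.0 and 35.4 FPKM in WT, against 39.8, 32.7 and 40.4 in PP2Aa-deficient libraries. These groups overlapped throughout, at 38.3 ± 4.89 and 37.6 ± 4.31 FPKM (SD, n = 3). The log2 change was -0.03 (SE 0.15, 95% confidence interval -0.36 to 0.31, limma adjusted p = 0.977), an interval that runs from 77.9% to 124% of WT on the FPKM + 1 scale. At about 123 to 297 fragments per library it was among the better measured members.

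Ppp2r5a, encoding B56 alpha, a subunit known to act on the MYC protein, measured 14.1, 14.7 and 13.9 FPKM in WT, against 12.5, 9.78 and 13.8 in PP2Aa-deficient libraries. The groups did not overlap, though the highest PP2Aa-deficient value, 13.8, lay just under the lowest WT value, 13.9. The log2 change was -0.24 (SE 0.16, 95% confidence interval -0.60 to 0.12, limma adjusted p = 0.697). With Ppp2r2d, this made 2 of 10 members whose groups did not overlap, both lower, and 0 higher, where 7.4% of tested genes were lower without overlap and 7.7% higher.

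Ppp2r5d, encoding B56 delta, had 1 library far from the rest. It measured 6.43, 6.22 and 5.10 FPKM in WT, against 6.52, 10.9 and 5.05 in PP2Aa-deficient libraries. PP2Aa-deficient replicate 2, the library with the most Ppp2r1a RNA of its group, stood at 184% of the WT mean, while the others stood at 110% and 85.3%. The log2 change was 0.24 (SE 0.25, 95% confidence interval -0.33 to 0.81, limma adjusted p = 0.828), and without that library it was -0.03 (limma adjusted p = 0.977). Ppp2r5d is the only member on the chromosome of Ppp2r1a. It overlaps Mea1 on the opposite strand, which was at 42.1 to 52.6 FPKM in WT, against 58.5, 30.3 and 37.0 in PP2Aa-deficient replicates 1 to 3. Mea1 was lowest in replicate 2, where Ppp2r5d was highest, and next lowest in replicate 3, where Ppp2r5d was lowest. A relation between Mea1 and Ppp2r5d was not tested.

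Ppp2r5e, encoding B56 epsilon, measured 2.89, 1.91 and 1.82 FPKM in WT, against 1.81, 3.14 and 2.03 in PP2Aa-deficient libraries. One high library stood in each group, and the groups overlapped (log2 change 0.05, SE 0.24, 95% confidence interval -0.49 to 0.59, limma adjusted p = 0.971). Ppp2r5b, encoding B56 beta, measured 1.75, 1.80 and 2.14 FPKM in WT, against 1.63, 1.62 and 2.45 in PP2Aa-deficient libraries, again with overlap (log2 change -0.01, SE 0.21, 95% confidence interval -0.49 to 0.47, limma adjusted p = 0.995). These rest on about 21 to 34 and 9 to 18 fragments per library, and their intervals run from 71.0% to 151% and from 71.2% to 139% of WT on the FPKM + 1 scale.

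The B'' family was the least abundant. Ppp2r3c, encoding G5PR, a subunit first found as a partner of the germinal centre protein GANP and needed for B cell survival in mice, measured 5.66, 7.36 and 5.43 FPKM in WT, against 4.96, 4.15 and 5.47 in PP2Aa-deficient libraries. The highest PP2Aa-deficient value, 5.47, lay just above the lowest WT value, 5.43. The means were 6.15 ± 1.05 and 4.86 ± 0.668 FPKM (SD, n = 3), or 79.0% of WT, with a log2 change of -0.28 (SE 0.18, 95% confidence interval -0.70 to 0.13, limma adjusted p = 0.683). It overlaps 1110008L16Rik on the opposite strand, at 1.58 to 3.89 FPKM in WT, against 2.09 to 3.16 in PP2Aa-deficient libraries.

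Ppp2r3d, encoding PR59, which binds the retinoblastoma relative p107, measured 3.24, 3.58 and 4.20 FPKM in WT, against 3.55, 3.33 and 1.83 in PP2Aa-deficient libraries. A single low library, PP2Aa-deficient replicate 3, carried most of the difference (log2 change -0.29, SE 0.23, 95% confidence interval -0.81 to 0.24, limma adjusted p = 0.767), which was -0.07 without that library. GENCODE M21 holds this gene as 7 coding transcripts of 353 to 2557 bases. With the one of longest coding sequence (450 bases) its values correspond to about 2 to 6 fragments per library, where counting alone gives an error of about 71.2% at the lowest, and with the longest transcript to about 11 to 34. Its RefSeq entry lists Ppp2r3a as an older synonym, so that symbol has also been used for this gene. Ppp2r3a itself, which encodes B'' alpha, did not reach 1 FPKM in any library and was at 0.191, 0.537 and 0.231 FPKM in WT, against 0.267, 0.246 and 0.387 in PP2Aa-deficient libraries. That is about 3 to 13 fragments per library, and a difference was not tested.

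**Figure D2:**
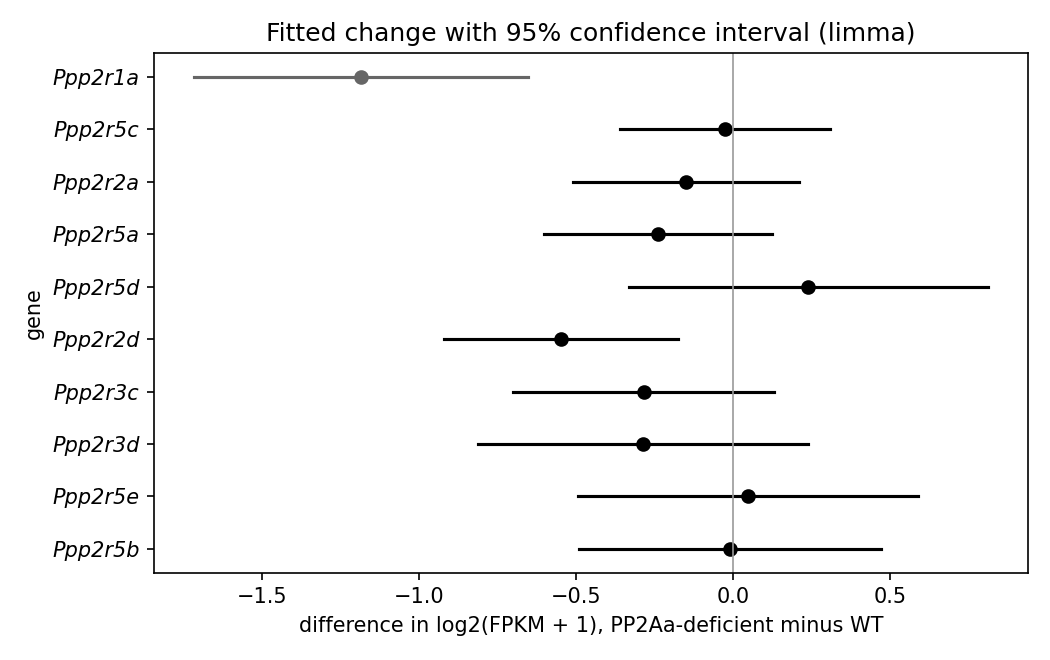
Fitted difference in log2(FPKM + 1), PP2Aa-deficient minus WT, for Ppp2r1a and the 9 tested regulatory subunit genes in order of level; points are limma estimates and lines unadjusted 95% confidence intervals. The interval of Ppp2r2d, -0.92 to -0.17, is the only one among the members that leaves out 0.

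Summed over the 10 genes, regulatory subunit RNA was at 97.4, 119 and 101 FPKM in WT, against 99.2, 92.4 and 99.4 FPKM in PP2Aa-deficient libraries. The groups overlapped, at 106 ± 11.5 and 96.98 ± 4.01 FPKM (SD, n = 3). Scaffold RNA, Ppp2r1a plus Ppp2r1b, was at 92.1, 91.2 and 87.7 FPKM in WT, against 35.7, 59.7 and 33.04 in PP2Aa-deficient libraries. Per library, scaffold RNA was thus 0.946, 0.768 and 0.869 times regulatory RNA in WT, against 0.360, 0.647 and 0.333 times in PP2Aa-deficient libraries, without overlap, which follows from the Ppp2r1a values above. Catalytic RNA, Ppp2ca plus Ppp2cb, was 0.240 to 0.320 times regulatory RNA in WT, against 0.206 to 0.274 times in PP2Aa-deficient libraries, with overlap.

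**Figure D3:**
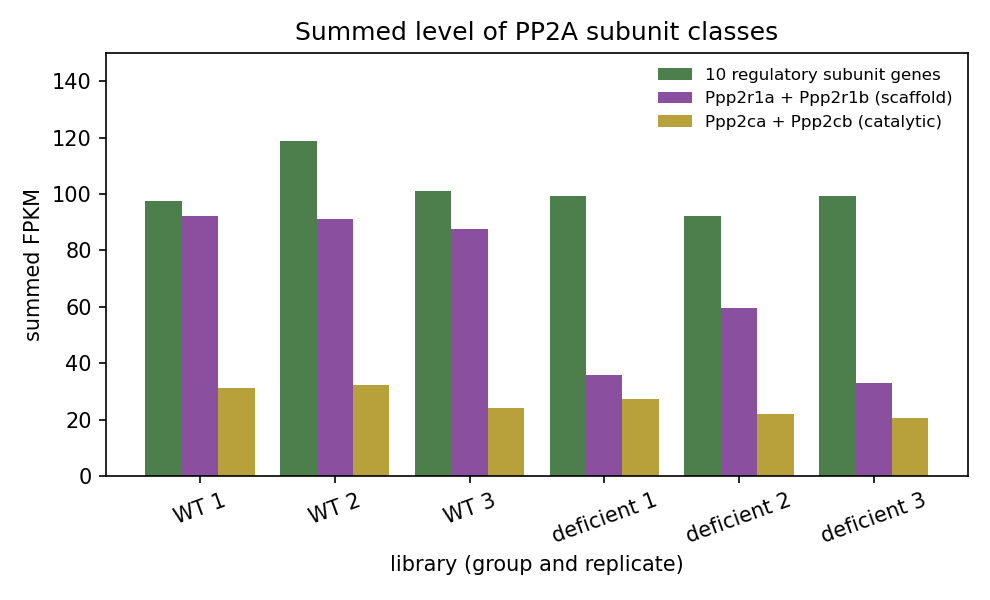
Summed FPKM of the 10 regulatory subunit genes, of the scaffold genes and of the catalytic genes in each of the 6 libraries. Regulatory RNA is at 92.4 to 119 FPKM in every library, while scaffold RNA is at 87.7 to 92.1 in WT, against 33.04 to 59.7 in PP2Aa-deficient libraries.

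Within that sum the B' family made up 62.5%, 57.8% and 57.8% in WT, against 62.8%, 62.9% and 64.1% in PP2Aa-deficient libraries, so that every PP2Aa-deficient library lay above every WT library, the closest pair by 62.8% against 62.5%. The B family made up 28.2%, 32.6% and 32.4% in WT, against 28.4%, 28.8% and 28.1% in PP2Aa-deficient libraries, with overlap. The B'' family made up 9.34%, 9.66% and 9.77% in WT, against 8.84%, 8.36% and 7.74% in PP2Aa-deficient libraries, without overlap. Each of its genes overlapped in share, among them Ppp2r3c (5.38% to 6.19% and 4.49% to 5.51%) and Ppp2r3d (3.02% to 4.16% and 1.84% to 3.60%). The lowest B'' share, in PP2Aa-deficient replicate 3, includes the low Ppp2r3d value there, of about 2 fragments. Of single genes, Ppp2r2d held 6.21%, 6.26% and 7.04% of the sum in WT, against 4.75%, 4.31% and 4.47% in PP2Aa-deficient libraries, without overlap. Ppp2r5c held 35.02% to 37.03% in WT, against 35.4% to 40.7% in PP2Aa-deficient libraries, the largest share in all 6. Ppp2r5d held 11.8% in PP2Aa-deficient replicate 2 and 5.05% to 6.61% elsewhere. Shares of a sum move against each other, and no test was made on them.

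**Figure D4:**
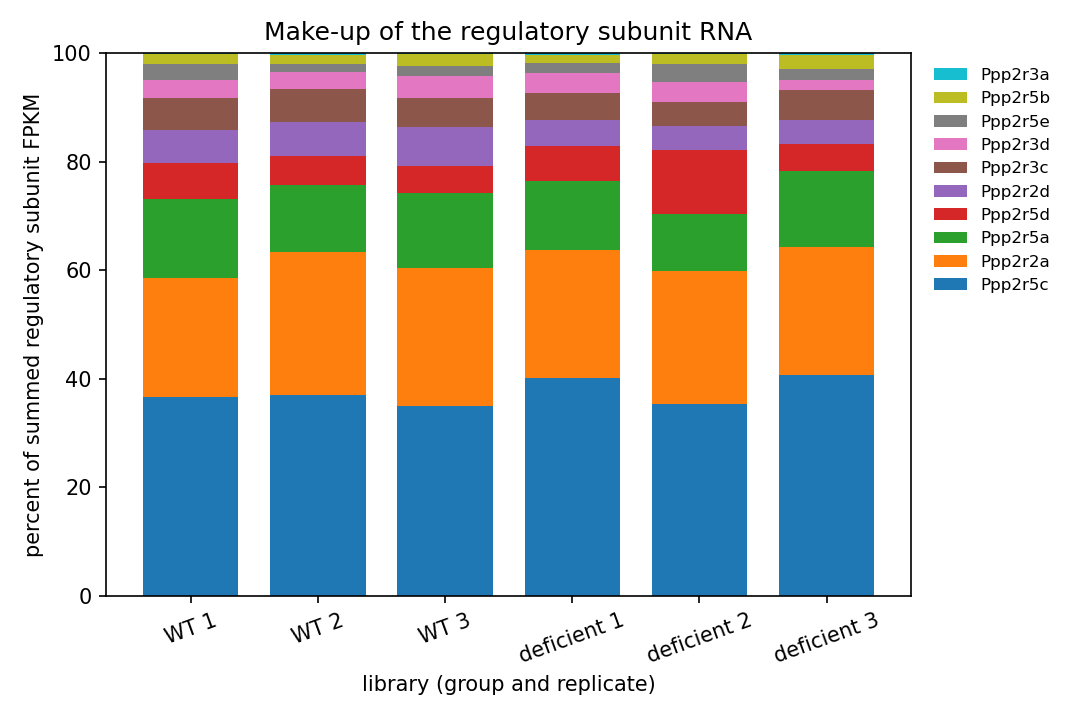
Percent of the summed regulatory subunit FPKM held by each of the 10 genes in each library, stacked in order of mean level from the bottom. Ppp2r5c holds 35.02% to 40.7% in the 6 libraries, and the red Ppp2r5d segment is widest in PP2Aa-deficient replicate 2, at 11.8%.

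The libraries did not carry equal weight. WT replicate 2, the deepest library, held the highest WT value of 6 of the 10 members, and PP2Aa-deficient replicate 2, the shallowest, the lowest PP2Aa-deficient value of 7. How often these libraries held such values over all tested genes was not counted, and the cause was not tested. Without PP2Aa-deficient replicate 2, 4 of 9 tested members changed sign. Ppp2r5b (0.058) and Ppp2r5c (0.071) then had log2 changes above 0, and Ppp2r5d (-0.032) and Ppp2r5e (-0.12) below 0. In that fit 7 members were below 0, against 50.7% of all tested genes, 2 members did not overlap (both lower, where 13.9% of tested genes were lower without overlap), and 0 passed over all genes. Ppp2r2d had a log2 change between -0.62 and -0.49 with any 1 library left out, and its limma adjusted p was then between 0.272 and 0.705. Without WT replicate 2 the log2 change of Ppp2r2a was -0.02.

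**Figure D5:**
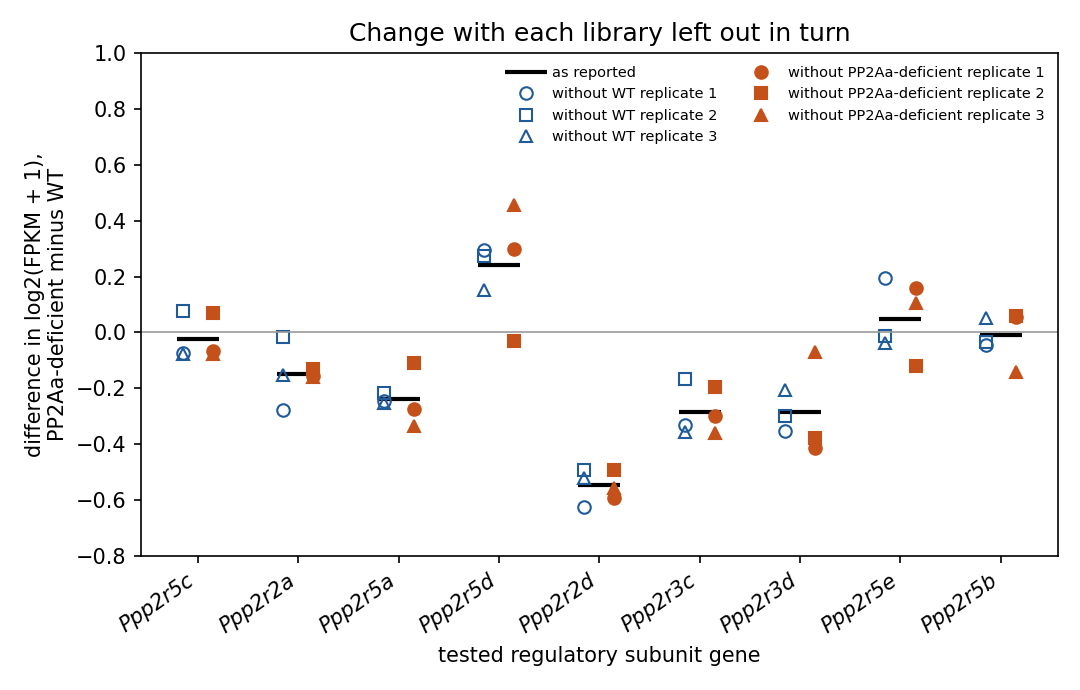
Difference in log2(FPKM + 1), PP2Aa-deficient minus WT, of the 9 tested members as reported (black lines) and with each WT (open) or PP2Aa-deficient (filled) library left out. Ppp2r2d stays between -0.62 and -0.49, and Ppp2r5d drops from 0.24 to -0.03 without PP2Aa-deficient replicate 2.

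Other genes of the pathway were taken from lists of core subunits, striatins (a further class of regulatory subunit), a further B family gene, inhibitors of B55, partners of B56, and assembly and methylation factors. Apart from Ppp2r1a, 24 of them were tested, 13 with a fitted change below 0 and 11 above, where 51.1% of all tested genes were below 0. Of the 24, 0 passed over all genes, a threshold that 0.0318% of all tested genes passed. The median log2 change of the 24 was -0.04. Of the 3 striatins, 0 were below 0 and Strn3 had the smallest p, at 4.25 ± 0.655 FPKM in WT, against 5.14 ± 0.738 in PP2Aa-deficient B cells (SD, n = 3, limma adjusted p = 0.77). Ppp2r2c, a B family gene of neurons, was listed at 0 in 5 libraries and at 0.098 FPKM in PP2Aa-deficient replicate 3. Of the 4 tested genes that inhibit B55 or act on its inhibitors, 1 was below 0, Ensa, at 47.4 ± 3.16 and 43.1 ± 5.63 FPKM (limma adjusted p = 0.813). Among partners of B56, 2 of 6 tested were below 0, and Axin1, a scaffold of the WNT pathway, was at 3.65 ± 0.209 FPKM in WT, against 5.04 ± 0.535 in PP2Aa-deficient B cells, higher without overlap (limma adjusted p = 0.532). Of assembly and methylation factors 7 of 8 were below 0, and the exception, Anp32a, a protein inhibitor of PP2A, was at 8.11 ± 1.21 and 12.2 ± 1.65 FPKM, higher without overlap (limma adjusted p = 0.386). Axin1 and Anp32a were the 2 of 24 other genes that were higher without overlap, where 7.7% of all tested genes were. Of the 24, 0 were lower without overlap, where 7.4% of all tested genes were. Ppp2r1b, Ppp2ca and Ppp2cb, the other core genes, were all below 0, at log2 changes of -0.28, -0.27 and -0.42, with limma adjusted p of 0.741, 0.687 and 0.611.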

How the data were processed

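The authors deposited 1 table of FPKM values with 1 column per library. Tools named in the submitters' processing notes, without their roles, are BWA, Cufflinks 2.2.1, Cuffnorm and TopHat2 2.0.10. The build, the annotation, read length and strand setting are not stated in those sources. Of 22815 rows, 27 carried dates in place of symbols and were left out. Groups came from the source label, and well names tied columns to samples. The deposited plate sheet calls these wells miRNA controls and targets, which differs from the genotype labels that set the groups.

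FPKM holds no counts. Relative depth came from the most common ratio of low values between libraries, and fragments from GENCODE M21 lengths, whose build may differ from the authors'; both are approximate and cover counting error only. Values were tested as log2(FPKM + 1), a scale that understates changes of low genes. The test was limma 3.58.1 (R 4.3.3, two-sided moderated test, mean-variance trend) with Benjamini-Hochberg adjustment over 9425 genes. It was also run on simulated data, with changes larger than any fitted for a member, so changes of their size were not covered. An exact permutation test of 3 against 3 libraries cannot go below p = 0.1 and was not used. Coding sequences were aligned with Biopython 1.88.

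The members, lists, tests and settings were chosen with earlier results of these data known. All members were named, and of each other list the gene of smallest p and those whose groups did not overlap. The rest of the core genes and the markers were named beyond this rule. One marker result is not reported here.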

Additional observations from a re-analysis of the deposited data

How the results depend on the processing

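Alternatives were a filter at 5 FPKM (which left Ppp2r3d, Ppp2r5b and Ppp2r5e untested) or none, a pseudocount of 0.1 or 0.5, quantile or median-ratio scaling, array weights, a fit without the mean-variance trend, terms for relative depth and for Xist RNA, and each library left out. The count of members called was 0 under all of them, as was that of the other PP2A genes apart from Ppp2r1a. Ppp2r1a itself passed without PP2Aa-deficient replicate 2 (limma adjusted p = 0.00555). Ppp2r2d was below 0 in all 16 alternatives, with a log2 change from -0.63 to -0.47, an unadjusted limma p from 0.00455 to 0.042 and a limma adjusted p from 0.196 to 0.705. Ppp2r2a, Ppp2r3c, Ppp2r3d and Ppp2r5a also stayed below 0 in every alternative that tested them.

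The members nearest to 0 changed sign. With array weights the log2 change of Ppp2r5b was 0.014. With a term for relative depth it was 0.0037 for Ppp2r5b, 0.085 for Ppp2r5c and -0.099 for Ppp2r5e. With libraries left out in turn it ranged from -0.14 to 0.058 for Ppp2r5b, from -0.079 to 0.075 for Ppp2r5c, from -0.032 to 0.45 for Ppp2r5d and from -0.12 to 0.20 for Ppp2r5e. Over all genes, 3 were called lower and 0 higher, against 1 higher with no filter, 3 higher with the filter at 5 FPKM, 7 higher with quantile scaling, 5 lower and 4 higher without the trend, and 5 lower and 11 higher with array weights. With libraries left out these counts ranged from 1 to 12 lower and from 0 to 4 higher, and the log2 change of Ppp2r1a from -1.48 to -0.998. The B'' share in WT was 9.59%, and 9.32% without Ppp2r3a, which follows from taking that gene out of the sum. The cause of the shifts in log2 changes and in counts of genes was not tested.

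The labels give the libraries no replicate numbers, and those used here follow the order of the samples. No pairing of libraries between the groups is given, so no paired analysis was made. By their lowest library, fewest fragments stood behind Ppp2r3d, at about 2 to 6 (11 to 34 with its longest annotated transcript). Ppp2r3a (3 to 13), Ppp2r5b (9 to 18), Ppp2r2d (17 to 57) and Ppp2r5e (21 to 34) came next.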
